A study of Coryphaena hippurus with 27 samples.

Results

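Whole mahi-mahi embryos, Coryphaena hippurus, held in source oil from the Deepwater Horizon well differed from unexposed embryos in their microRNA (miRNA) profile at 24 hours post fertilisation (hpf). The comparison holds the 3 source oil libraries and the 3 control libraries of that stage, which are 6 of the 27 libraries of the study, and every miRNA name in their shared count table. These libraries were selected by their labelled stage and exposure. Controls developed in seawater without oil, labelled 0 g/l, and the exposed embryos in seawater with a high energy water accommodated fraction (HEWAF, an emulsion of oil blended into water) of source oil, labelled 1 g/l. Source oil is crude oil from the well itself, whereas the slick oil of the study is oil that had weathered on the sea surface. All embryos came from spawns of captive broodstock caught in the wild, were placed in the beakers soon after fertilisation, and stayed there at 27 °C under 16 h of light and 8 h of darkness without renewal of the water. The concentration is the label's and no measured chemistry was used here. Each library was made from total RNA of a pool of 30 animals, so differences between single embryos are averaged. Nothing in the labels ties the same-numbered pools of different groups to each other, and no label separates the pools by spawn, so the p-values measure the spread between these pools. In RNA of a whole embryo, fewer cells of a type and less of the miRNA per cell cannot be told apart.

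MiRNAs are short RNAs, cut from either arm (5p or 3p) of a hairpin precursor, that pair with messenger RNAs and lower their translation and stability. Many are tied to a tissue: miR-1, miR-133 and miR-206 to muscle, miR-124 to neurons, miR-142 to blood cells, miR-122 to liver. In fish embryos the miR-430 family clears maternal messenger RNA after fertilisation, and let-7 accumulates later as tissues mature. Polycyclic aromatic hydrocarbons of crude oil are known to disturb heart, eye and craniofacial development in fish embryos, and many of them activate the aryl hydrocarbon receptor (AHR), a transcription factor that senses such compounds. The labels call these samples whole embryos, in which muscle and eyes are still forming.

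The control libraries held 75309, 62237 and 64179 counts and the source oil libraries 56616, 51925 and 54026, so every exposed library was smaller than every control. The mean totals were 67242 ± 7054 and 54189 ± 2350 (SD, n = 3 each), with an exact two-sided permutation p of 0.1, the smallest that 3 against 3 allows. Names detected also separated the groups, with 1009, 958 and 966 in controls and 897, 917 and 893 under source oil. The highest name of a library held 1.01 to 1.20% of its counts. The first principal component, with 59.2% of the variance, separated the groups, and correlations were 0.976 to 0.988 among controls, 0.969 to 0.981 among source oil libraries and 0.928 to 0.952 between the groups. Source oil replicate 2 lay apart from replicates 1 and 3 on the second component, with 18.2% of the variance. Source oil replicates 1 and 3 differed by less than sampling noise (chi-square per degree of freedom 0.805), as did control 1 and control 3 (0.710) and control 2 and control 3 (0.863). Averaging source oil 1 and 3 and counting them as 1 sample left 75 higher and 67 lower names. The controls, with more than 1 such pair, were kept as 3 samples there, so their close agreement was not allowed for. The table lists a mature miRNA under several names with almost the same counts, so names of 1 miRNA number are not independent of each other. Names of different numbers can share counts too, such as miR-204 and miR-211. Values below are normalised counts per 60000, and log2 fold changes are source oil minus control ± SE. Adjusted p-values come from edgeR's quasi-likelihood F test over all tested names. Each SE was taken from the F statistic. For some rare names, such as miR-142, it lies below sampling noise and so understates the uncertainty.

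Of 1160 names, 600 passed the filter on low counts and belonged to 119 miRNA numbers. Under source oil 85 names rose and 73 fell, which are 14.2% and 12.2% of the tested names and 26.3% together. At an unadjusted p under 0.05 there were 236. Calls fell on 54 miRNA numbers: 27 had only higher names, 26 had only lower names, and miR-216 had both. Fold changes were mostly moderate, since 11 of the higher names and 23 of the lower names passed a 2-fold change. The 3 libraries of each group did not overlap for 261 names, 43.5% of those tested, and for 154 of the 158 called ones. The median log2 fold change of all tested names was -0.0088.

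The direction of change went with abundance. Among the 91 names with a mean raw count of at least 200, 24 rose and 0 fell, and among those between 100 and 200, 37 rose and 6 fell. Below that the balance was reversed, with 3 higher and 22 lower between 50 and 100, 16 and 29 between 20 and 50, and 5 and 16 below 20. The median log2 fold change was 0.09 in the most abundant class and -0.18 in the class of 20 to 50. The shares of all tested names set beside the lists below are not adjusted for abundance. The lower totals and fewer detected names of the exposed libraries moved with this pattern, and their part in it was not tested. With library size alone as the scaling, which set the median at -0.07, 65 names rose and 91 fell. With a cyclic loess fit over abundance 77 rose and 88 fell. DESeq2 called 60 names and gave no adjusted p to 30 of the 158, the authors' deposited table calls 61, and without control replicate 1 or source oil replicate 3 the count was 82 or 87.

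**Figure D1:**
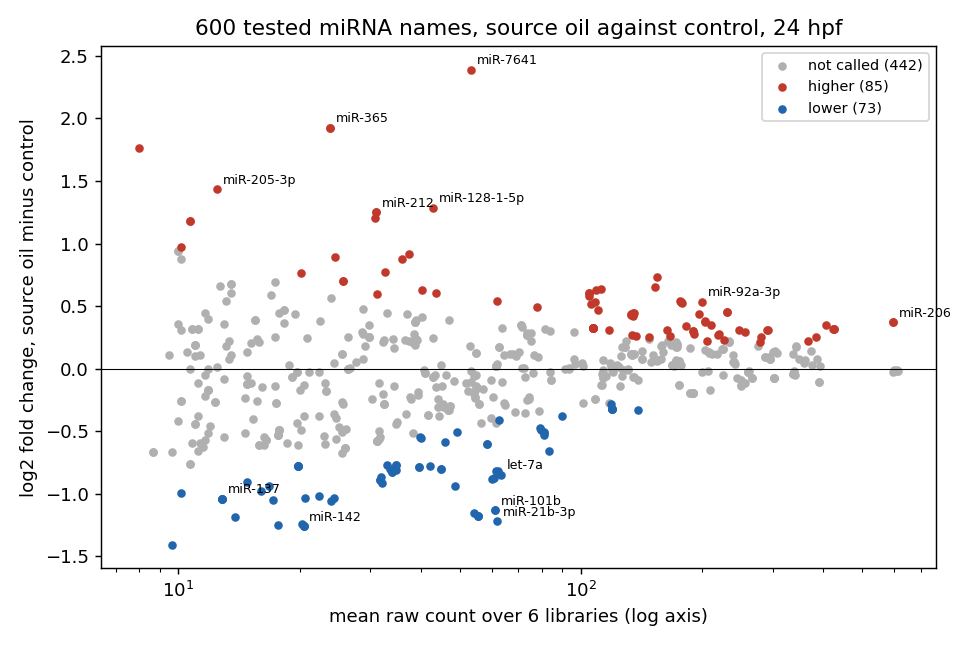
Log2 fold change of each of the 600 tested names (y axis) against its mean raw count over the 6 libraries (x axis, log scale), with the 85 higher and 73 lower names in colour. Lower names lie mainly under a count of 100, and the 91 names of 200 or more hold 24 higher names and 0 lower ones.

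The largest rise was that of miR-7641, at 17.5, 25.1 and 14.1 in the controls and 96.4, 87.6 and 112 under source oil. Every exposed library held more than 3 times the count of the highest control (log2 fold change 2.39 ± 0.19, adjusted p = 2.211e-07, 5.24-fold). No sequences were used here, so whether the counts of miR-7641 come from a fish miRNA was not checked. miR-365, which is paired with miR-193 in vertebrate genomes and takes part in muscle and brown fat differentiation in mice, followed at 12.7, 5.803 and 13.2 in the controls and 40.1, 42.6 and 40.6 under source oil (1.92 ± 0.25, adjusted p = 6.046e-05). Its exposed libraries lay close together, and the control libraries were more spread. The name miR-365-5p had the same counts and no 3p name was tested, so the rise may be that of the 5p arm. Names of miR-193, the partner of miR-365, were too rare for the test. The raw counts of miR-193a-5p were 4, 4 and 4 in controls and 3, 3 and 6 under source oil. Next among names with a mean count of at least 10 came miR-205-3p, the rare arm of an epithelial miRNA, at 7.14, 6.77 and 7.54 in the controls and 19.5, 13.4 and 25.5 under source oil (1.44 ± 0.30, adjusted p = 0.00219). The groups did not overlap, but the exposed libraries spread almost 2-fold.

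Among names with a mean count of at least 10, the deepest falls included those of miR-142, miR-21b-3p, miR-734-5p and miR-101b. The name miR-216a fell as far, by 1.25 on the log2 scale, but the more abundant miR-216b, which rose, was taken for its number. The rarer miR5658 fell further (-1.40), with raw counts of 17, 13 and 15 in controls and 4, 8 and 1 under source oil. Whether its counts come from a fish miRNA was not checked either. miR-21b-3p, the minor arm of a miRNA known for its part in tissue injury and in heart valve formation in zebrafish, stood at 87.3, 73.5 and 87.6 in the controls and 42.2, 37.7 and 26.7 under source oil (-1.22 ± 0.17, adjusted p = 1.278e-04). The highest exposed library was thus well under the lowest control. miR-101b, of a family known to repress the histone methyltransferase EZH2 in human cells, stood at 96.8, 69.6 and 73.5 in the controls and 35.7, 40.2 and 34.8 under source oil (-1.13 ± 0.17, adjusted p = 3.166e-04). Of the 7 tested miR-101 names 6 fell and 0 rose under all 4 scalings tried, and miR-101 itself went from 73.3 ± 16.2 to 32.7 ± 10.9. miR-202-5p, a gonad-enriched miRNA in fish, fell from 18.5 ± 3.86 to 9.99 ± 0.865, and lost its call with cyclic loess.

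**Figure D2:**
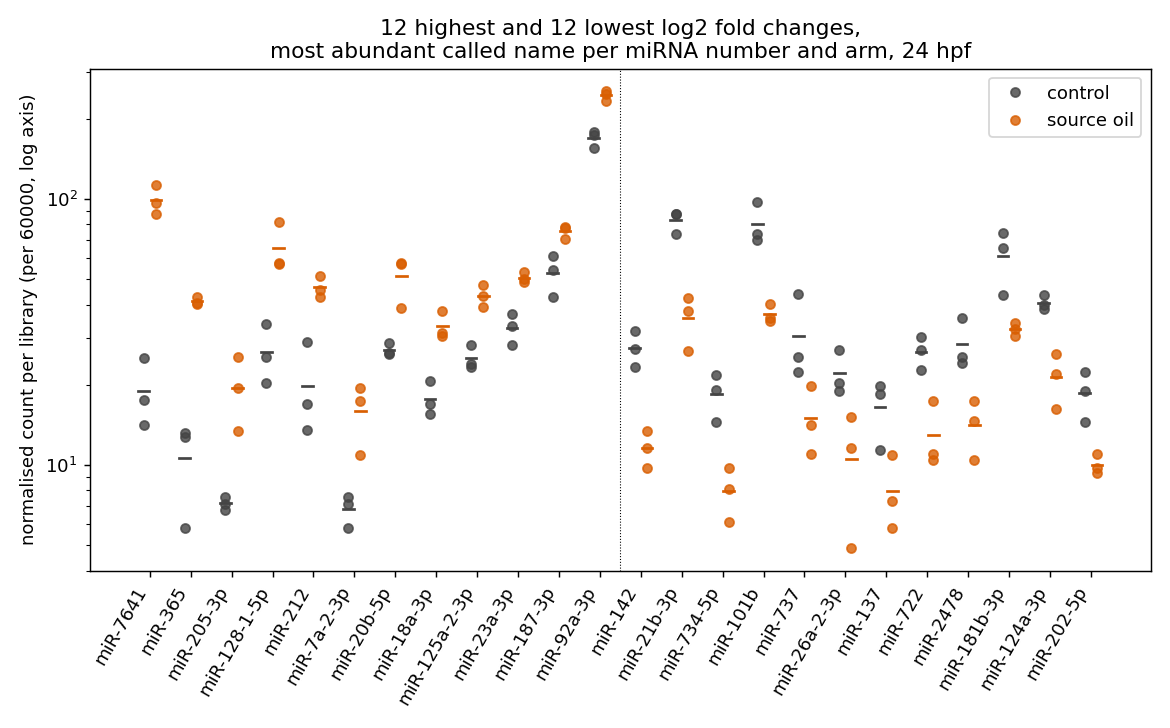
Normalised count per 60000 (y axis, log scale) in each of the 3 control and 3 source oil libraries, with the group mean as a bar, for the 12 highest and the 12 lowest log2 fold changes, taking the most abundant called name of each miRNA number and arm and then 1 per number. Only names whose groups did not overlap were taken, so the gap in each of the 24 was a condition of entry. The first shown is miR-7641, with controls up to 25.1 and exposed libraries from 87.6 upwards. The last is miR-202-5p, with exposed libraries up to 10.95 and controls from 14.5 upwards.

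Neural miRNAs had more falls than rises. On the list of neuronal and neural progenitor miRNAs 27 tested names fell and 16 rose, shares of 21.4% and 12.7% of the list against 12.2% and 14.2% of all tested names, and the list's median was -0.05. Under library size alone and cyclic loess 30 fell, and 9 and 13 rose, and DESeq2 called 13. miR-124, which drives neuronal differentiation, fell in 6 of its 11 tested names, and miR-124a-3p was at 39.7, 43.5 and 38.6 in the controls and 26, 21.9 and 16.2 under source oil (-0.91 ± 0.21, adjusted p = 0.00412). No exposed library reached the lowest control. The rarer miR-137, which acts in neuronal maturation, fell in 4 of 4 names and stood at 19.8, 18.4 and 11.3 in the controls and 10.8, 7.302 and 5.797 under source oil (-1.04 ± 0.32, adjusted p = 0.0245). Its call was lost without control 1, control 2 or source oil 3. miR-219-5p, which promotes oligodendrocyte differentiation in mice and zebrafish, went from 42.2 ± 2.22 to 23.6 ± 6.07, and 5 of the 11 miR-219 names fell. miR-135a, also on the list, went from 55.5 ± 9.74 to 31.7 ± 4.61. miR-153, a brain miRNA linked to synaptic release, went from 24.2 ± 3.49 to 14 ± 4.999, but lost its 4 calls with cyclic loess.

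miR-9, a miRNA of neural progenitors, had names of 2 kinds. miR-9-5p, with 407 ± 16.7 in controls and 379 ± 15.4 under source oil, was among the 10 most abundant miRNA numbers and did not pass (-0.10 ± 0.07, adjusted p = 0.254). The separately counted miR-9-1-5p was at 43.6, 47.4 and 56.5 in the controls and 23.8, 30.4 and 31.3 under source oil and fell (-0.78 ± 0.19, adjusted p = 0.00635). Of 23 miR-9 names 5 fell and 0 rose, with 8 and 10 lower under library size alone and cyclic loess. How the authors divided reads among such names is not stated by any source used here, so a change of 1 name need not be a change of every mature form of that miRNA.

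Other neural miRNAs rose. miR-128-1-5p, the less abundant arm of a miRNA of mature neurons, was at 25.4, 20.3 and 33.9 in the controls and 57.4, 81.5 and 56.8 under source oil (1.29 ± 0.21, adjusted p = 4.033e-04). miR-212, which neuronal activity induces through the factor CREB in mammals, was at 13.5, 29.02 and 16.96 in the controls and 45.5, 42.6 and 51.01 under source oil (1.25 ± 0.24, adjusted p = 0.00136). Source oil 2 was the highest library for miR-128-1-5p, control 2 was the highest control for miR-212, and the groups did not overlap for either. The name miR-212-5p had the same counts as miR-212. miR-132, the neighbour of miR-212, was too rare for the test, with raw counts of 7, 7 and 1 in controls and 12, 7 and 12 under source oil. miR-7a-2-3p rose from low counts, 7.14, 5.803 and 7.54 against 10.8, 19.5 and 17.4 (1.18 ± 0.31, adjusted p = 0.00891), and lost its call without control 1 or source oil 2. The 6 names of miR-129, a neuronal miRNA, gave higher calls near 0.32 ± 0.11 that were all lost under library size alone and cyclic loess.

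Eye and lens miRNAs moved upwards. Of the 20 tested names of the list 11 rose and 0 fell, or 55.0% against 14.2% of all names, with a median of 0.37. The 11 are 5 names of miR-204, 1 of miR-211, 3 of miR-184 and 2 of miR-182, so they are not independent. The names that rose had raw counts above 100 in every library, a range where rises were more frequent than over all names. Library size alone and cyclic loess gave 9 and 0, and DESeq2 called 7. miR-204, a miRNA of retinal pigment epithelium and lens that shapes eye development in medaka, was at 117, 123 and 113 in the controls and 154.9, 174 and 151 under source oil (0.44 ± 0.09, adjusted p = 0.00219). All exposed libraries were above all controls. miR-211, its relative in sequence, had nearly the same values, at 116 ± 5.36 in controls and 158 ± 13.3 under source oil. miR-184, abundant in lens and cornea, was at 188, 194.4 and 220.5 in the controls and 231, 329.8 and 269 under source oil (0.46 ± 0.11, adjusted p = 0.00458). miR-204, miR-211 and miR-184 kept their calls under all 4 scalings, and miR-184 lost its call without control 1. Of the sensory cluster miR-183, miR-96 and miR-182, known from photoreceptors and hair cells, the 2 names of miR-182 rose (0.31) and miR-183 was at 357 ± 19.05 in controls and 368 ± 38.7 under source oil, with 0.04. Neither miR-182 call held under library size alone or cyclic loess.

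Muscle miRNAs were split by member. Of 35 tested names 4 rose and 10 fell, or 11.4% and 28.6% against 14.2% and 12.2% of all names, and DESeq2 called 2. Their median was 0.10, so median and calls pointed opposite ways. miR-206, the miRNA of skeletal muscle, was among the most abundant miRNAs at 485, 566 and 557 in the controls and 629, 761 and 686 under source oil (0.37 ± 0.08, adjusted p = 0.00183). Each exposed library was above each control. miR-1, of skeletal and cardiac muscle, was at 291 ± 7.62 in controls and 308 ± 11.3 under source oil and did not pass (0.08 ± 0.07), and turned to -0.05 with cyclic loess. The calls of miR-1c (0.31) and miR-1-5p were lost under library size alone and cyclic loess. miR-133a did not pass either, with 131 ± 6.77 in controls and 141.1 ± 40.6 under source oil. Its other arm fell: miR-133a-1-5p was at 109, 77.4 and 93.3 in the controls and 66.1, 63.3 and 67.2 under source oil (-0.52 ± 0.14, adjusted p = 0.0121), and 6 of 17 miR-133 names fell, all of the 5p arm. miR-499-5p, encoded within a myosin heavy chain gene of heart and slow muscle, was at 127.7, 134 and 134.7 in the controls and 117, 105 and 93.9 under source oil (-0.32 ± 0.10, adjusted p = 0.0256). It was lower in each exposed library, and its call was lost in DESeq2 and the authors' deposited table and without control 2, control 3 or source oil 3. On the heart-enriched list 5 of 25 tested names fell and 0 rose, where 12.2% of all names fell, with a median of -0.24. Cyclic loess gave 9 falls and DESeq2 1 call; the 5 are the 4 names of miR-499 and miR-21b-3p. miR-208, the other myosin miRNA of the heart, was not analysed here.

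Some names of the timing miRNA let-7 fell. let-7a was at 71.4, 97.7 and 70.7 in the controls and 44.4, 41.4 and 46.4 under source oil (-0.85 ± 0.17, adjusted p = 0.00166), and the fitted fold was 0.556. Of 23 tested let-7 names 6 fell and 0 rose, or 26.1% lower against 12.2% of all names and 5 calls in DESeq2, with a list median of -0.28 and 5 to 6 falls under every scaling tried. The log2 fold changes of the 23 names ran from -0.88 to 0.31. The let-7 partners miR-99, miR-100 and miR-125 share transcripts with let-7 in vertebrates. Of their 23 names 3 rose and 0 fell, a share near the 14.2% of all names. Of the 3, miR-125a-5p and miR-125b-5p have equal counts. Under cyclic loess 7 of the 23 rose and 0 fell, with a median of 0.41, where 77 of all 600 names rose. Among the 7 were the 4 names of miR-100, which no other scaling called. miR-125a-2-3p was at 23.8, 23.2 and 28.3 in the controls and 39, 47.5 and 42.9 under source oil (0.78 ± 0.19, adjusted p = 0.00634), and miR-125a-5p went from 20.3 ± 3.63 to 32.9 ± 3.34. The calls of these partners were lost in DESeq2 and in the authors' deposited table.

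MiRNAs of the Hox clusters, which lie among the genes that pattern the body axis and repress some of them, had modest rises. Of 23 tested names of miR-10 and miR-196, 13 rose and 0 fell, or 56.5% against 14.2% of all names, with a median of 0.28 and a lowest value of -0.44. The 13 are 7 names of miR-10 and 6 of miR-196, many with nearly the same counts, so they are not independent. Under cyclic loess 8 of the 23 rose, and DESeq2 called 6. miR-10b was at 379, 391 and 394 in the controls and 430.1, 525 and 498.5 under source oil (0.32 ± 0.07, adjusted p = 0.00391). miR-196a-5p was at 179, 205.04 and 188 in the controls and 229.7, 242 and 254 under source oil (0.35 ± 0.08, adjusted p = 0.00453). In both every exposed library was above every control, by less than 1.5-fold on average. The separately counted name miR-10 did not pass (0.28 ± 0.19), and miR-196 lost its call under 11 of the alternatives that keep every library and without 4 of the libraries.

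Members of the miR-17-92 family clusters, which promote cell proliferation and growth, went both ways by member. Of 48 tested names 12 rose and 2 fell, against 14.2% and 12.2% of all names, and DESeq2 called 8. The risers were mainly of the miR-92 seed group: miR-92a-3p was at 154.7, 174 and 178 in the controls and 233, 253 and 247 under source oil (0.54 ± 0.08, adjusted p = 3.166e-04), and 7 of 8 miR-92 names rose under TMM scaling and 8 under cyclic loess. miR-92b went from 121 ± 5.85 to 200.2 ± 4.37. miR-20b-5p was at 28.6, 26.1 and 26.4 in the controls and 57.4, 38.9 and 56.8 under source oil (0.92 ± 0.20, adjusted p = 0.00236), with source oil 2 below the other exposed libraries and above all controls. The minor arm miR-18a-3p was at 20.6, 15.5 and 16.96 against 37.9, 30.4 and 31.3 (0.90 ± 0.22, adjusted p = 0.00528), a call that DESeq2 and the authors' deposited table did not make. miR-17 itself was at 159 ± 9.46 in controls and 181.02 ± 10.2 under source oil and did not pass (0.19 ± 0.09). miR-19a, of the same clusters, fell from 67.8 ± 19.04 to 45.03 ± 6.43 and lost its call with cyclic loess. The cell cycle inhibitors miR-15 and miR-16 had 0 calls in 8 tested names, or 1 higher under cyclic loess, and a median of -0.15.

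In the epithelium, miR-205, which maintains epithelial character, rose in 6 of 7 names. miR-205 was at 89.6, 94.8 and 88.6 in the controls and 149, 118 and 155.4 under source oil (0.64 ± 0.11, adjusted p = 9.065e-04), and both of its arms passed. The most abundant miRNA number, miR-203 of the epidermis, was at 622 ± 15.8 in controls and 614 ± 25.5 under source oil and did not pass (-0.02 ± 0.06). miR-141-3p of the epithelial miR-200 group was at 154.7, 148 and 158 in the controls and 125.7, 123 and 117 under source oil and fell (-0.33 ± 0.09, adjusted p = 0.00989), without a call in DESeq2 or the authors' deposited table. miR-200b was at 298 ± 13.5 in controls and 325 ± 3.25 under source oil (0.12 ± 0.07). On the list 6 of 31 names rose and 1 fell, or 19.4% and 3.23% against 14.2% and 12.2% of all names. All 6 that rose are names of miR-205. Cyclic loess gave 7 higher and 9 lower, so the list has no stable direction.

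Several blood miRNAs had low counts at this stage. miR-142, a miRNA of leukocytes and their precursors, was at 31.7, 23.2 and 27.3 in the controls and 9.75, 13.4 and 11.6 under source oil (-1.26 ± 0.25, adjusted p = 0.00176). No exposed library reached a control. DESeq2 gave it an unadjusted p of 0.00253 but no adjusted p, and called 0 names of the white blood cell list. The 4 names of miR-142 account for all 4 calls among the 10 tested names of the white blood cell list. That is 40% lower against 12.2% of all names, but miR-142, miR-142-3p and miR-142a-3p have equal counts. Cyclic loess added 2 higher names. Of the other members, miR-155 had a log2 fold change of 0.68 and the 3 miR-146 names -0.025 to 0.0022, all without a call. For miR-223 of the myeloid lineage, the tested name miR-223-5p had a log2 fold change of -0.27 without a call. Its raw counts were 33, 29 and 31 in controls and 23, 13 and 24 under source oil. The name miR-223 was too rare for the test, with raw counts of 14, 10 and 5 against 9, 2 and 11. The red cell miRNA miR-144 was at 15.99 ± 1.47 in controls and 18.9 ± 6.92 under source oil and did not pass (0.25 ± 0.27). miR-451, its neighbour, had raw counts of 3, 6 and 4 in controls and 2, 1 and 1 under source oil, below the limit for testing.

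Pancreas and endocrine miRNAs gave 8 higher and 1 lower of 21 tested names, or 38.1% and 4.76% against 14.2% and 12.2% of all names, and DESeq2 called 1. miR-375b-3p was at 124.6, 111 and 132.9 in the controls and 184.2, 198 and 197 under source oil (0.65 ± 0.09, adjusted p = 1.278e-04). miR-375, which is needed for islet formation in zebrafish, was at 211.03, 231 and 238 in the controls and 257, 313 and 272 under source oil (0.31 ± 0.08, adjusted p = 0.0128). Exposed and control libraries did not overlap for either, but miR-375 lost its call under cyclic loess, where the list had 3 higher and 1 lower. For miR-216, of the exocrine pancreas, miR-216a-5p rose from 124.4 ± 6.297 to 149 ± 6 whereas the name miR-216a fell from 23.5 ± 4.67 to 9.95 ± 0.800. The 2 names share a number but not their counts, and the rise was lost under library size alone and cyclic loess. Liver and gut miRNAs had 0 of 14 names called, or 2 lower under library size alone and 2 at an unadjusted p under 0.05, and a median of -0.18. miR-122, the main miRNA of liver, was at 117 ± 9.72 in controls and 112 ± 18.8 under source oil (-0.07 ± 0.12).

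Vessel, skeletal, stress and AHR lists held few calls under TMM scaling. Vessels and smooth muscle had 3 of 48 names higher and 1 lower, fewer than the 14.2% and 12.2% of all names, and DESeq2 called 0 with 2 at an unadjusted p under 0.05. The 3 are miR-23, of the clusters with miR-27 and miR-24 that act in blood vessel growth, and miR-23a-3p was at 33.3, 36.8 and 28.3 in the controls and 53.1, 48.7 and 49.9 under source oil (0.62 ± 0.18, adjusted p = 0.0146). The call was lost in DESeq2 and without control 1 or control 3. miR-27c-3p fell from 70.9 ± 8.202 to 53.2 ± 2.76, a call lost whichever of the 6 libraries was left out. The skeletal and connective tissue list had 0 calls in 17 names (6 at an unadjusted p under 0.05, 0 in DESeq2). Under library size alone and cyclic loess 6 and 7 of them were lower. miR-199, of the skeleton-forming mesenchyme, was at 203.7 ± 22.9 in controls and 177 ± 5.78 under source oil (-0.19 ± 0.09). For its neighbour miR-214, the tested name was miR-214-5p, which had a log2 fold change of -0.24 without a call. Its raw counts were 67, 42 and 51 in controls and 40, 35 and 30 under source oil. The rarer name miR-214 had raw counts of 4, 2 and 6 against 11, 6 and 12, too few for the test. The hypoxia list had 0 of 7 called, or 1 higher under cyclic loess, and miR-210, the classic hypoxia-induced miRNA, was at 47.3 ± 2.47 in controls and 45.4 ± 7.19 under source oil (-0.05 ± 0.17). On the list of p53-induced miRNAs, whose calls numbered 2 lower under library size alone and 5 higher under cyclic loess, 1 of 20 rose, miR-34a-5p, at 10.3, 4.84 and 5.65 against 17.3, 8.52 and 16.2 (0.98 ± 0.35, adjusted p = 0.0460), with overlapping groups, while miR-34a did not pass (0.88 ± 0.37). The list of miRNAs reported to respond to AHR activation in fish had 6 of 52 names higher and 3 lower, with a median of 0.02. These shares of 11.5% and 5.77% are below those of all names. The higher names were 3 of miR-212 and 3 of miR-23, and the lower ones miR-21b-3p, miR-181b-3p and miR-27c-3p. Cyclic loess gave 7 higher and 7 lower on this list, where 77 and 88 of all 600 names were called. DESeq2 called 5 of the list.

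Of the miRNAs from miR-722 to miR-740, which were first described in fish, 6 of 14 tested names fell and 2 rose, with a median of -0.14; the falls are 42.9% against 12.2% of all names. DESeq2 called 0 of these names, with 5 at an unadjusted p under 0.05. miR-734-5p was at 19.04, 14.5 and 21.7 in the controls and 9.75, 6.08 and 8.12 under source oil (-1.19 ± 0.29, adjusted p = 0.00635). miR-737 was at 43.6, 22.2 and 25.4 in the controls and 14.1, 10.95 and 19.7 under source oil (-1.06 ± 0.30, adjusted p = 0.0155), and miR-722 at 30.1, 27.1 and 22.6 in the controls and 17.3, 10.95 and 10.4 under source oil (-1.03 ± 0.26, adjusted p = 0.00637). Control 1 was the highest library for miR-737, which lost its call without it, and both miR-737 and miR-722 lacked a call in the authors' deposited table. The 2 higher names belong to miR-724 (0.26), of which 1 passed under library size alone and 0 under cyclic loess.

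Several further names moved. miR-181b-3p, from the minor arm of a family of lymphocytes and brain, was at 74.6, 43.5 and 65.02 in the controls and 30.3, 34.1 and 32.5 under source oil (-0.94 ± 0.21, adjusted p = 0.00301). miR-301a-5p was at 109, 91.9 and 97.1 in the controls and 62.8, 64.5 and 62.6 under source oil (-0.65 ± 0.12, adjusted p = 0.00136), the only call among 24 names of miR-130 and miR-301. miR-26a-2-3p fell from 22.04 ± 4.33 to 10.5 ± 5.23 and miR-2478 from 28.4 ± 6.32 to 14.1 ± 3.47, both without a call in the authors' deposited table. miR-187-3p rose from 52.5 ± 9.11 to 75.4 ± 4.19, without one in DESeq2 or that table. miR-8159-5p rose from 95.1 ± 3.22 to 131 ± 3.48. Of 19 miR-30 names 6 rose, or 3 under cyclic loess, and the name miR-30c went from 151 ± 8.55 to 217.3 ± 6.36.

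The maternal-clearance family miR-430 gave no call. Its 8 tested names held 0 calls in edgeR and 0 in DESeq2, with 0 at an unadjusted p under 0.05 in either, and a median of 0.03, whose sign turned with the scaling. miR-430b was at 396, 362.7 and 379.7 in the controls and 402, 397 and 402 under source oil (0.08 ± 0.06, adjusted p = 0.419). Each exposed library was above each control, the closest pair being 397 and 396. miR-430a-3p was at 392.5 ± 18.3 in controls and 399 ± 9.86 under source oil (0.02 ± 0.06). Besides miR-206, miR-10b, miR-430a-3p, miR-203, miR-9-5p, miR-183, miR-200b and miR-1, the 10 most abundant miRNA numbers held miR-21 at 361 ± 25.2 in controls and 397 ± 23.8 under source oil (0.14 ± 0.07) and miR-222 at 309.7 ± 40.1 in controls and 297 ± 65.5 under source oil (-0.07 ± 0.12). Of these 10 names miR-206 and miR-10b passed, and the other 8 did not.

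**Figure D3:**
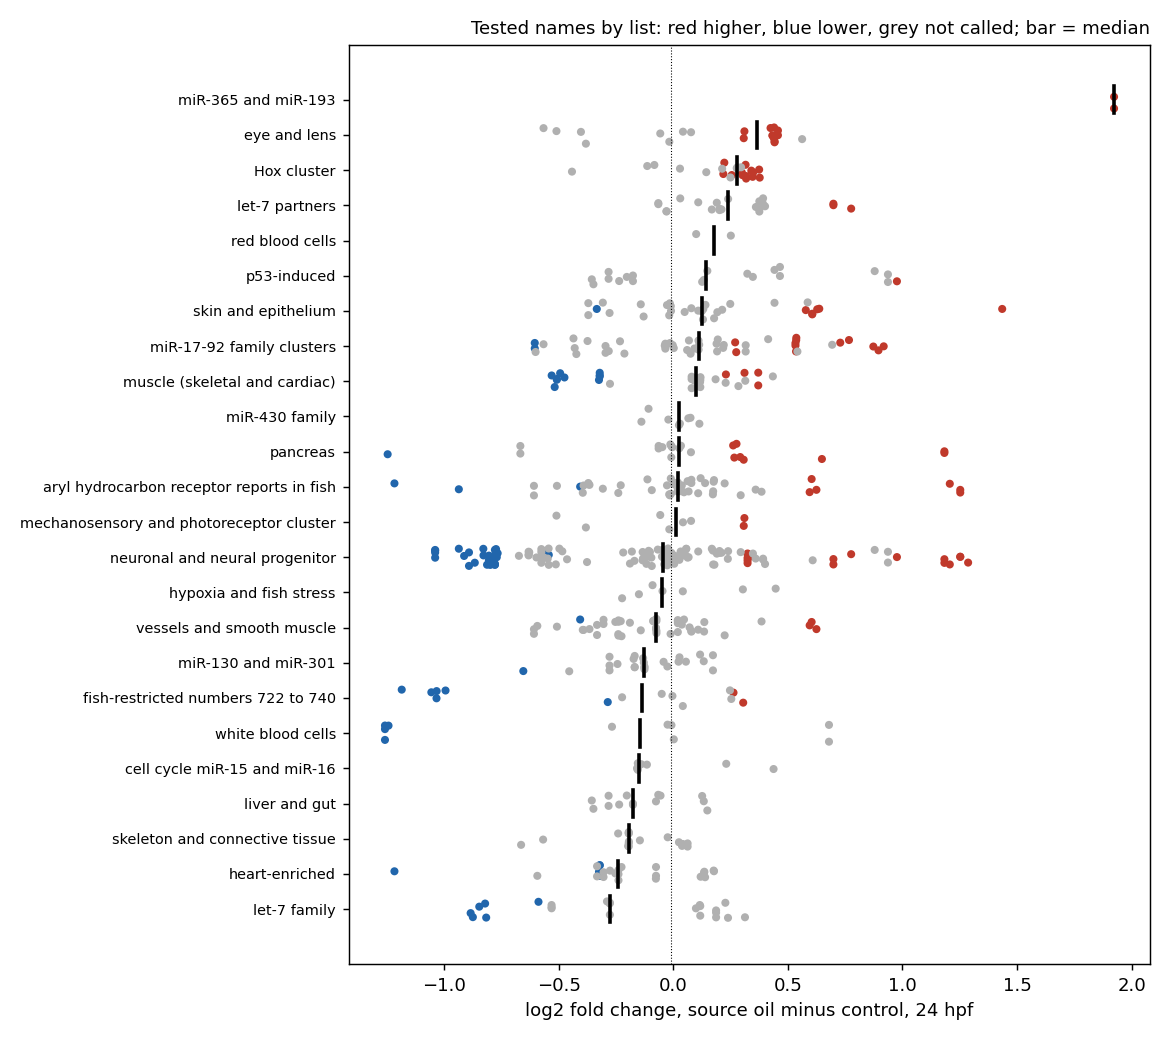
Log2 fold change, source oil minus control (x axis), of every tested name on each list (y axis, ordered by median), as 1 point per name with the list's median as a bar. Eye and lens (median 0.37) and the Hox cluster (0.28) lie to the right of the dotted median of all names, and the let-7 family (-0.28) and the heart-enriched list (-0.24) to the left.

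The 5p and 3p names of a miRNA number often differed in their call. The most abundant 5p name and the most abundant 3p name of each number were paired. A pair can thus join different precursors, such as miR-30c-5p with miR-30a-3p. The name miR-133-5p had nearly the same counts as miR-133-3p. Of the 45 pairs 2 had both names called, in the same direction, and 18 had 1 called. In 25 neither was called, and 0 had opposite calls. Of all tested names 26.3% were called, and the pairs were not compared with pairs of unrelated names. The gap was widest for miR-101, where miR-101b-3p fell (-1.13 ± 0.17) and miR-101b-5p had a log2 fold change of 0.38 ± 0.22 without a call. For miR-21, miR-21b-3p fell whereas the more abundant miR-21b-5p had 0.18 ± 0.08 without a call. miR-128-1-5p rose, and the abundant miR-128-3p was at 266 ± 17.1 in controls and 262 ± 27.4 under source oil (-0.02 ± 0.08). miR-184-3p rose (0.46 ± 0.11), and miR-184-5p had -0.57 ± 0.24 (adjusted p = 0.140). miR-204-5p rose (0.42 ± 0.09), and miR-204-3p had -0.40 ± 0.28. miR-7-5p (-0.0047 ± 0.10), miR-734-3p (0.25 ± 0.20) and miR-219-3p (0.24 ± 0.20) were the uncalled names of the other wide pairs. The difference between arms itself was not tested.

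**Figure D4:**
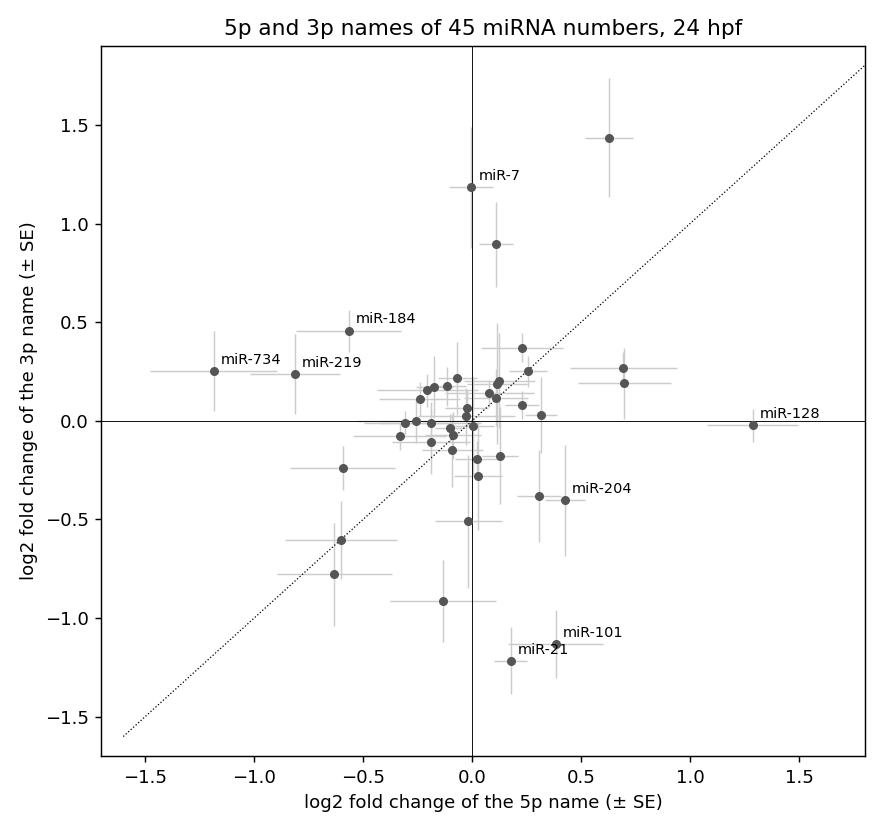
Log2 fold change ± SE of the 3p name (y axis) against that of the 5p name (x axis) for 45 miRNA numbers, with the line of equal change dotted and the 8 pairs furthest apart named. miR-101 and miR-21 lie low because their 3p names fell by 1.13 and 1.22, and miR-128 lies to the right with a 5p rise of 1.29.

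Members of genomic clusters, which are often made from 1 transcript, also differed in their calls. Of all tested names 14.2% rose and 12.2% fell, and differences between members of a cluster were not tested. miR-133 lies beside miR-1 or miR-206. Of these, 2 of 10 miR-1 names and 2 of 3 miR-206 names rose, whereas 0 of 17 miR-133 names rose and 6 fell. The miR-1 calls were lost under library size alone and cyclic loess. The cluster of miR-132 and miR-212 had 3 of 4 tested names higher, all of them miR-212. In the cluster of miR-216 and miR-217 2 of 9 rose and 1 fell. The clusters of miR-199 and miR-214, miR-143 and miR-145, miR-192 and miR-194, miR-221 and miR-222, and miR-462 and miR-731 had 0 calls in 14, 6, 9, 10 and 4 names, the first with 6 or 7 lower under library size alone and cyclic loess and the last with 1 higher under cyclic loess.

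Some of these calls rest on 1 library or on the test. Of the miRNAs given above, miR-7a-2-3p, miR-23a-3p, miR-187-3p, miR-737, miR-26a-2-3p, miR-137, miR-2478, miR-202-5p, miR-133a-1-5p, miR-184, miR-375, miR-125a-5p, miR-196a-5p, miR-153 and miR-19a lost their call without control 1. Without source oil 3 it was lost by miR-187-3p, miR-26a-2-3p, miR-137, miR-722, miR-2478, miR-202-5p, miR-133a-1-5p, miR-499-5p, miR-141-3p, miR-125a-5p, miR-219-5p, miR-153 and miR-19a. Without source oil 2 it was lost by miR-7a-2-3p, miR-26a-2-3p, miR-375 and miR-153, and without control 3 by miR-23a-3p, miR-202-5p, miR-499-5p, miR-141-3p, miR-125a-5p, miR-153 and miR-19a. miR-202-5p and miR-125a-5p also lost it without source oil 1. The calls of miR-1c, miR-182, miR-216a-5p, miR-196, miR-34a-5p, miR-129, miR-724 and miR-27c-3p were each lost without any of at least 4 libraries. In the authors' deposited table miR-124a-3p, miR-9-1-5p, miR-216a, miR-219-5p, miR-133a-1-5p, miR-196a-5p, miR-23a-3p, miR-375, miR-153 and miR-19a are not called either. miR-7641, miR-365, miR-205, miR-205-3p, miR-128-1-5p, miR-212, miR-20b-5p, miR-92a-3p, miR-142, miR-21b-3p, miR-734-5p, miR-101b, miR-181b-3p, miR-206, miR-204, let-7a, miR-10b, miR-301a-5p and miR-375b-3p kept theirs in every alternative that gave them an adjusted p. DESeq2 gave none to miR-142, miR-734-5p and miR-205-3p, and the authors' deposited table has none for the last pair.

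Whether source oil acted differently from slick oil at this stage was tested in 1 fit of the 9 libraries of 24 hpf. Both oils share their controls, so the fold changes of the oils against control are not independent. Of 603 names 7 differed, 1.16%, all lower under source oil than under slick oil, and 76 differed at an unadjusted p under 0.05. miR-206-5p, the minor arm of the muscle miRNA, was at 27.8, 34.5 and 33.1 in controls, 66.2, 77.5 and 60.1 under slick oil and 36.9, 36 and 38.3 under source oil. Source oil stayed near the controls and slick oil was above both (source minus slick -0.87 ± 0.15, adjusted p = 0.0213). miR-462, a fish miRNA induced by hypoxia and interferon, was at 69.6, 92.4 and 77.8, 145.1, 157 and 127.8 and 96.1, 89.99 and 108 in the same order (-0.54 ± 0.12, adjusted p = 0.0350). The other 5 calls were 4 names of miR-204, such as miR-204b at 238, 232 and 196.4 under slick oil and 158, 181.3 and 153.1 under source oil (-0.44 ± 0.10, adjusted p = 0.0350), and miR-211 (-0.43 ± 0.10). For these the exposed groups were both above control and slick oil was the higher. The miR-204 names and miR-211 had nearly the same counts in control and source oil libraries, so these calls are not independent. The calls rest on little: DESeq2 made 0 (16 at an unadjusted p under 0.05), averaging closely agreeing replicates left 0, and leaving out source oil 1, source oil 3, slick oil 1 or slick oil 2 left 0. The remaining names are not shown to respond alike to both oils.

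**Figure D5:**
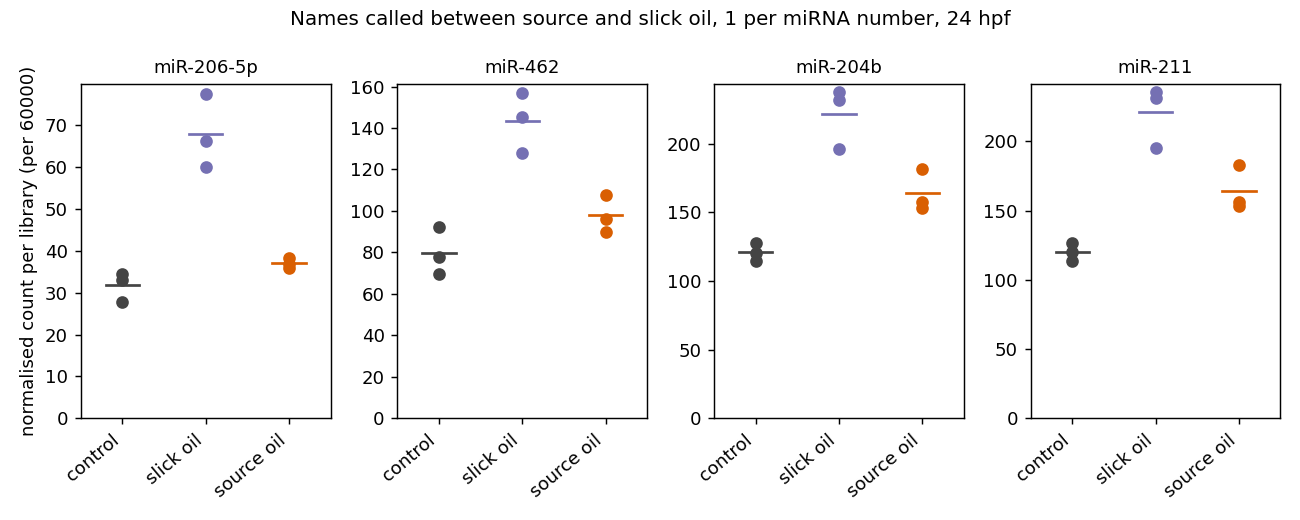
Normalised count per 60000 (y axis, from 0) in each library of control, slick oil and source oil at 24 hpf, with the group mean as a bar, for the miRNA numbers that differed between the oils. Source oil libraries lie below every slick oil library in all 4 panels, for miR-206-5p at 36.0 to 38.3 against 60.1 to 77.5. The panels of miR-204b and miR-211 are not independent, since their control and source oil counts are nearly the same.

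Whether the response at 24 hpf differed from that of later larvae was tested over 18 libraries, as the source oil effect at 24 hpf minus the mean of the effects at 48 and 96 hpf. Of 704 names 111 differed, 15.8%, with 95 more positive (13.5%) and 16 more negative (2.27%) at 24 hpf. That split depends on the scaling: library size alone gave 20 and 45, and cyclic loess gave 6 and 6. Only 3 names passed under all 4 scalings. miR-375 had effects of 0.32 ± 0.08, -0.05 ± 0.08 and -0.43 ± 0.09 at 24, 48 and 96 hpf (difference 0.56 ± 0.10, adjusted p = 6.177e-04), and miR-375b-3p had 0.66 ± 0.08, 0.18 ± 0.09 and -0.02 ± 0.10 (0.58 ± 0.10, adjusted p = 6.177e-04). miR-184-5p had -0.55 ± 0.21, 0.63 ± 0.27 and 1.26 ± 0.32 (-1.50 ± 0.30, adjusted p = 0.00805). The endocrine miR-375 names were thus relatively higher at the first stage, and the minor arm of miR-184 relatively lower. miR-206 had effects of 0.38 ± 0.09, 0.13 ± 0.09 and -0.36 ± 0.09 and miR-92a-3p 0.55 ± 0.08, 0.14 ± 0.08 and -0.10 ± 0.08, both without a call under cyclic loess. miR-365 had 1.94 ± 0.22, 1.17 ± 0.20 and 0.95 ± 0.20 (difference 0.88 ± 0.27, adjusted p = 0.0439), likewise without a call under cyclic loess. Leaving out 1 library at a time called between 2.07% (without source oil 2 of 24 hpf) and 17.9% (without source oil 1) of the names, and 15 of the 18 libraries lowered the share by over 1.5 times when left out.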

How the data were processed

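The deposited tables hold whole-number values per miRNA name, with 3 control and 3 oil libraries in each. They were treated here as counts without normalisation. Per the file headers, the authors' deposited result tables hold log2 fold changes, p-values and adjusted p-values, with mean normalised counts (a signal) and test statistics (a score). DESeq2 is named in the submitters' processing notes, without a version. The aligner, the reference and the rule for reads that match several names were not given in the sources used here. Nor was it given whether the low, even counts are reads, distinct sequences or normalised reads. All columns were mapped to samples, leaving 0 unmapped. No genome or miRNA sequences were used.

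The analysis used edgeR 4.0.16 in R 4.3.3. Low names were removed by filterByExpr (minimum count 10), TMM factors scaled the libraries, and the two-sided quasi-likelihood F test was adjusted by Benjamini-Hochberg over all tested names at a threshold of 0.05. Normalised counts are per 60000. Source and slick oil were compared in 1 fit of 9 libraries over 1099 names with equal control counts in both tables, and stages in 1 fit of 18 libraries over 1004 shared names. Alternatives were DESeq2 1.42.0, 3 other scalings (DESeq2 size factors, library size alone, cyclic loess of limma 3.58.1), 2 other filters, merged names, averaged replicates, a replicate block, larger fits, the authors' table and leaving out each library. On simulated data with 200 of 600 names changed, the comparison of source oil with control recovered 96.9% of changes of 1 on the log2 scale and 64.6% of those of 0.5, with 3.13% false calls. The simulated names were drawn independently and without a shift by abundance, unlike those of the table. The share of false calls among the real calls cannot be read from it. The 3 libraries per group limit the precision.

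The comparison, the lists of miRNAs, which come from general knowledge, and the alternatives were chosen with earlier results of these data known. Named were the 12 highest and 12 lowest miRNA numbers among called names whose mean count reached 10 and whose groups did not overlap, after reducing these to the most abundant name of each number and arm, up to 4 called names per list, 22 miRNAs given whether called or not, the 10 most abundant numbers, up to 10 numbers for each further comparison, and the 8 arm pairs furthest apart. Outside that rule, and named after their values were seen, are miR-9-1-5p, miR-219-5p, miR-153, miR-135a, miR-129, miR-101, miR-19a, miR-92b, miR-216a, miR-724, miR-1-5p, miR-30c and miR5658. So are the untested miR-132, miR-193a-5p and miR-223, and the stage effects of miR-375, miR-184-5p and miR-365.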

Additional observations from a re-analysis of the deposited data

Results flagged for a closer look

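A direct test of source against slick oil at 24 hpf called 7 names. DESeq2 called 0, as did the fit with closely agreeing replicates averaged. The difference of source minus slick oil was -0.87 for miR-206-5p, -0.54 for miR-462, -0.44 for miR-204b and -0.43 for miR-211 on the log2 scale. The last pair had nearly the same control and source oil counts and is not independent.

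The source oil effect at 24 hpf differed from the mean effect at 48 and 96 hpf for 111 names in a test of that difference. Among the 10 miRNA numbers with the lowest adjusted p, the effect at 24 hpf was higher by 0.58 for miR-375b-3p, 0.53 for miR-196b-5p, 0.53 for miR-92a-3p, 0.52 for miR-184-3p and 0.50 for miR-206. It was higher by 0.49 for miR-30a-3p, 0.45 for miR-25, 0.45 for miR-8159-5p, 0.40 for miR-10d and 0.39 for miR-21b-5p. Of these, miR-375b-3p passed under all 4 scalings.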

How the results depend on the processing

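The 158 names called between source oil and control became 60 with DESeq2, 61 in the authors' deposited table, 80 with a mean count of at least 50, 62 with 1 name per miRNA number and arm and 82 to 175 when 1 library was left out. No named miRNA that was called changed direction in any alternative. The calls lost among them were 32 of 70 with DESeq2, 8 of 86 with library size alone and 16 of 86 with cyclic loess.

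The 7 names called between the oils became 0 with DESeq2 (16 at an unadjusted p under 0.05), 1 with DESeq2 size factors, 1 with identical names merged, 0 with closely agreeing replicates averaged and 0 to 11 without 1 library. The 15.8% of names called between stages became 5.97% with DESeq2, 9.66% with DESeq2 size factors, 9.23% with library size alone, which moved the median of all names by -0.18, 1.70% with cyclic loess, 7.37% with no filter, 7.92% with 1 name per miRNA number and arm, and 2.07 to 17.9% without 1 library.

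Names without a call turned sign under some settings. With cyclic loess they were miR-1 (-0.0479), miR-430b (-0.0534), miR-430a-3p (-0.10), miR-183 (-0.0872), miR-200b (-0.00307) and miR-210 (0.0920). With library size alone they were miR-430a-3p (-0.0333) and miR-183 (-0.0171), and with a mean count of at least 50 the same names (-0.0339 and -0.0179). Merging identical names gave -0.0118 for miR-430a-3p and 1 name per number and arm gave -0.0141. Averaged replicates gave 0.00681 for miR-122, 0.00506 for miR-203 and 0.0241 for miR-222. Leaving out 1 library at a time gave -0.0803 to 0.31 for miR-133a, -0.21 to 0.0257 for miR-122, -0.0502 to 0.46 for miR-144, -0.0735 to 0.0244 for miR-203, -0.15 to 0.0553 for miR-210, -0.0440 to 0.0598 for miR-430a-3p, -0.0453 to 0.13 for miR-183 and -0.28 to 0.0381 for miR-222.

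Same-numbered deviations from the group means correlated at 0.250, 0.0456 and -0.0664. With 3 libraries per group these values cannot decide whether the numbers pair the libraries. With replicate number as a block 154 names were called between source oil and control, 7 between the oils and 17.3% of names between stages, and not every library correlated best with its own number. The cause of the changes was not tested. Names under a mean count of about 10 could not be tested, and 49 names at 0 in every control and 159 at 0 in every source oil library held at most 7 counts in all, so absence is not shown.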
